A study of Mus musculus with 12 samples.

Results

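The genes described here encode parts of SCF ubiquitin ligases, the Skp1, Cullin 1 and F-box complexes that mark proteins for destruction. They were taken from the deposited table by gene symbol, through each Ensembl gene ID. All 8 symbols were found among the 53647 gene IDs, and all 8 passed the filter on low values. They are the substrate receptors Fbxw7 (ENSMUSG00000028086), Fbxw11 (ENSMUSG00000020271), Btrc (ENSMUSG00000025217), Skp2 (ENSMUSG00000054115) and Ccnf (ENSMUSG00000072082), the F-box protein Fbxo5 (ENSMUSG00000019773), the scaffold Cul1 (ENSMUSG00000029686) and the RING subunit Rbx1 (ENSMUSG00000022400). The study's title names fbxw7 among the genes it links to cell-cycle arrest through p53.

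In an SCF ligase, CUL1 holds the adaptor SKP1 and an F-box protein at one end and RBX1, which recruits the ubiquitin-conjugating enzyme, at the other. The F-box protein chooses the substrate. FBXW7 recognises phosphorylated cyclin E, MYC, JUN and NOTCH1, and Fbxw7 is a known p53 target gene. BTRC and FBXW11, the beta-TrCP paralogs, recognise beta-catenin, IkappaB and CDC25A. SKP2 recognises the CDK inhibitor p27, and cyclin F, the product of Ccnf, recognises cell-cycle proteins in S and G2 phase. FBXO5, also called EMI1, is best known as an inhibitor of the anaphase-promoting complex, the other large ligase of the cell cycle.

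Polyadenylated RNA was sequenced from mouse embryos at embryonic day 9.5. The 12 libraries form 6 groups of 2: embryos labelled p53 -/- (knockout), untreated and 1 h and 3 h after X-rays, and embryos labelled p53 +/+ (wild type) at the same times. Irradiated embryos received 30 Gy at 5 Gy per minute inside the pregnant mouse. The sources used here do not give the p53 allele, the strain, or whether a library holds 1 embryo or a pool. The labels do not say that the 2 libraries of a group are separate embryos or litters, so the spread behind each p-value is that among these libraries and may be technical.

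The libraries go against their labels at Trp53 itself. Its transcript was higher in the library labelled knockout than in the same-numbered library labelled wild type in 5 of 6 pairs. The other pair is untreated number 2, with 79.1 TPM in the library labelled knockout, against 211 TPM in the library labelled wild type. In untreated number 1 the values were 265 TPM in the library labelled knockout and 114 TPM in the library labelled wild type. Every difference from untreated rests on these groups. At 3 h the values were 242 and 219.8 TPM (transcript abundance scaled to a fixed total within each library) in libraries labelled knockout, against 93.7 and 68 TPM in libraries labelled wild type. Which part of the gene is deleted is not given, so the transcript level alone does not show which allele a library carries. The p53 target Cdkn1a was at 499 and 444 TPM in libraries labelled knockout at 3 h, against 5.91 to 8.36 TPM in every library labelled wild type. Mdm2, another p53 target, had 294 and 306 TPM in libraries labelled knockout at 3 h and 33.4 and 33.6 TPM in libraries labelled wild type. Ccng1, a further p53 target, had 563 and 703 TPM in libraries labelled knockout at 3 h, against 10.6 and 14 TPM in libraries labelled wild type. Untreated, Ccng1 had 18.8 and 12.35 TPM in libraries labelled knockout and 10.1 and 29.2 TPM in libraries labelled wild type, in order of number. Every direction below is therefore given by label only. Ribosomal protein genes took 18.5% of TPM in the library labelled knockout and 18.4% in the library labelled wild type that are numbered 2 at 1 h, and 10.6% to 12.6% in the other 10 libraries. The deposited TPM sum to a fixed total, so the depth of each library is unknown. Markers of neural progenitors, somites, cardiac muscle, endothelium and primitive erythroid cells were all detected, as a whole embryo at this stage should show.

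The 8 genes were expressed at different levels before irradiation, and TPM, being scaled by transcript length, allows their comparison. Over the 4 untreated libraries Fbxw7 had the lowest level, between 12.1 and 14 TPM, followed by Btrc with 20.2 to 28.7 TPM. Fbxw11 followed with 35 to 57 TPM. Ccnf had 58.7 to 75.7 TPM, Fbxo5 67.7 to 92.7 TPM and Skp2 85.6 to 88.9 TPM. Cul1 and Rbx1, the scaffold and RING genes, had the highest levels, 120.7 to 189 TPM for Cul1 and 142 to 198 TPM for Rbx1. Neighbours in this order overlapped between Ccnf and Fbxo5, between Fbxo5 and Skp2 and between Cul1 and Rbx1. The other neighbours did not overlap.

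**Figure D1:**
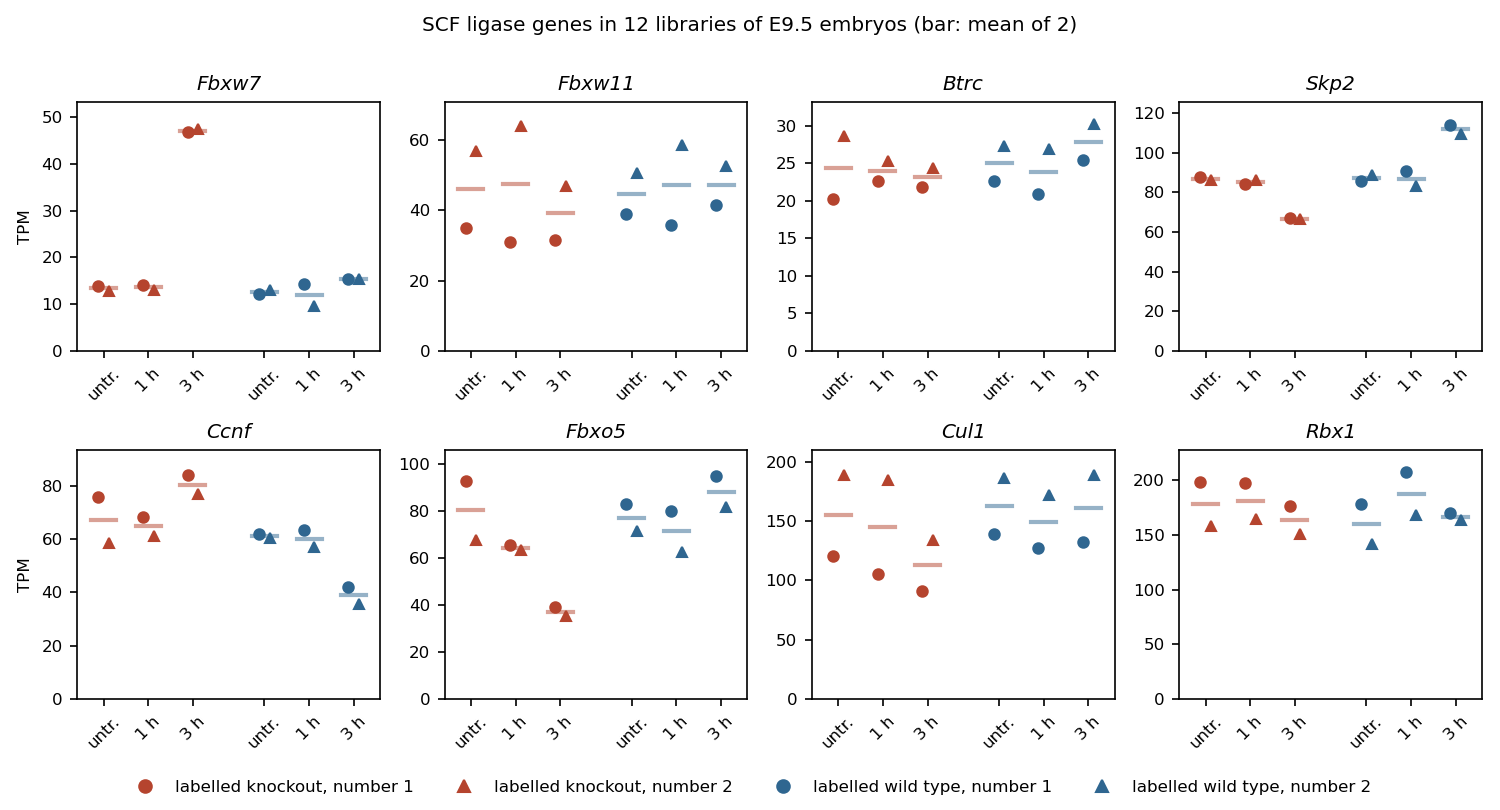
TPM (vertical axes, each from 0) of the 8 SCF genes in every library, by labelled genotype and time, with a bar at the mean of each pair of libraries. Fbxw7 stands at 46.9 and 47.4 TPM in libraries labelled knockout at 3 h and between 9.65 and 15.4 TPM in the other 10, while Fbxw11 and Cul1 split by library number in every group.

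Promoter windows are shown for the 4 genes that differed between labels at 3 h. RefSeq, on build GRCm38.p6, gave windows of 300 bases, from 250 before a start to 50 after it, for 7 of the 8 genes. The letters of the cell cycle genes homology region, TTTGAA, and of the CCAAT box were searched on both strands. A CCAAT on the other strand reads ATTGG, and a TTTGAA there reads TTCAAA. Matches are in capitals.
Ccnf, chr17:24251360-24251659 on the minus strand: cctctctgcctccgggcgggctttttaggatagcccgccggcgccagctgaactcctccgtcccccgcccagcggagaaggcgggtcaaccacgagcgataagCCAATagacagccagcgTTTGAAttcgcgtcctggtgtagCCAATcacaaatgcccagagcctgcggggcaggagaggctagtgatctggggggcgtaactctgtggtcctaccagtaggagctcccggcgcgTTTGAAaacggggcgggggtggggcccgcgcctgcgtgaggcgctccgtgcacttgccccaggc
Fbxo5, chr10:5805416-5805715 on the minus strand: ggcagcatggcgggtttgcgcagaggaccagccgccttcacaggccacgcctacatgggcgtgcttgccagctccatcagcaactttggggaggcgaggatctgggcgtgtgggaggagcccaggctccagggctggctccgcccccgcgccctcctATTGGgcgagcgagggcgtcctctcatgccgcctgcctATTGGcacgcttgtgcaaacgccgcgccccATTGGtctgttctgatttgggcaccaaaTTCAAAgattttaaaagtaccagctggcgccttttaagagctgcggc
Skp2, upstream start, chr15:9155376-9155675 on the minus strand: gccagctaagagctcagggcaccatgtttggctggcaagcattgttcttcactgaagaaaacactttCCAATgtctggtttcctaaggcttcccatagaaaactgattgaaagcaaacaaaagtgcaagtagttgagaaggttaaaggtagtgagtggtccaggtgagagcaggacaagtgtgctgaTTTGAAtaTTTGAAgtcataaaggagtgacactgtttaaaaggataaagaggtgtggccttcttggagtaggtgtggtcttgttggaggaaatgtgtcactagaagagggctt
Skp2, downstream start, chr15:9140405-9140704 on the minus strand: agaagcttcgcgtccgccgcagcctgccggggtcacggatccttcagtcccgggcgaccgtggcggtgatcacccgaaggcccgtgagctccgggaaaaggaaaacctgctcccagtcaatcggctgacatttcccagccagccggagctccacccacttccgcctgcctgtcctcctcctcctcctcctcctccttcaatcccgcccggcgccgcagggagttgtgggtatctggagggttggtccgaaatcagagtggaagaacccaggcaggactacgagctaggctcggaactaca
Fbxw7, most upstream start, chr3:84815327-84815626 on the plus strand: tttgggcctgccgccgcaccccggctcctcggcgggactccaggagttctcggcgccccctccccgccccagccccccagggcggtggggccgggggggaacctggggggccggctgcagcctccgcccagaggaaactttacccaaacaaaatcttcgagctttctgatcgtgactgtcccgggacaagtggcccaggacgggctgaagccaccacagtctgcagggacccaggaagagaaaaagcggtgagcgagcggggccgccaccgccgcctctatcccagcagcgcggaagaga
Ccnf held 2 TTTGAA and 2 CCAAT, the nearest TTTGAA beginning 14 bases before the start. Fbxo5 held 3 CCAAT, 93, 55 and 25 bases before the start, and 1 TTTGAA. The upstream Skp2 window held 2 TTTGAA and 1 CCAAT, and the downstream one neither. None of the 3 Fbxw7 windows held either. Over all 32851 windows 17.9% held TTTGAA, 37.4% CCAAT and 6.95% both. A consensus p53 half-site was searched as well and lay in 8.36% of all windows, and among the 12 windows of these genes only in that of Fbxw11. Only exact matches within these windows were looked for. A site with a mismatch or outside the windows would be missed, so the search does not show which genes p53 binds. The letters TTCCCGC, also searched, lay in 4.6% of all windows and among the 12 only in that of Rbx1.

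Fbxw7 rose at 3 h in libraries labelled knockout and was the most changed of the 8 genes. It had 13.9 and 12.9 TPM untreated, 14.2 and 13.1 TPM at 1 h and 46.9 and 47.4 TPM at 3 h in libraries labelled knockout. In libraries labelled wild type it had 12.1 and 13.1 TPM untreated, 14.3 and 9.65 TPM at 1 h and 15.4 and 15.3 TPM at 3 h. Both libraries labelled knockout at 3 h lay above all 10 others. The mean was 47.2 ± 0.332 TPM at 3 h, against 13.4 ± 0.728 TPM untreated (SD, n = 2 each, labelled knockout). On the log2(TPM + 1) scale the rise was 1.74 (SE 0.18, adjusted p = 0.000575, limma), and 1.72 against 1 h (adjusted p = 0.000804). The 3 h difference between labels, knockout minus wild type, was 1.56 (SE 0.18, adjusted p = 0.0012). These 3 calls held without any 1 of the 12 libraries. The 3 h difference from untreated in libraries labelled wild type was 0.26 (adjusted p = 1), and both 3 h libraries lay above both untreated ones. The response differed between labels by 1.48 (SE 0.26, adjusted p = 0.019). That call was lost without any 1 of the 8 untreated and 3 h libraries, with adjusted p up to 0.0913. Without both untreated libraries numbered 2, an alternative chosen after seeing the data, the rise from untreated was 1.69 (adjusted p = 0.0207) and the difference of the responses 1.37 (adjusted p = 0.258). In bulk RNA of whole embryos, more cells of a type and more RNA per cell cannot be told apart.

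At 1 h Fbxw7 stood at its untreated level in libraries labelled knockout, with a log2 difference of 0.02 (adjusted p = 0.99), while Cdkn1a had 79.3 and 76.2 TPM at 1 h, against 6.88 and 5.38 TPM untreated. Cdkn1a, which encodes the CDK inhibitor p21, was thus called at 1 h (log2 3.47, adjusted p = 0.000498, limma) and Fbxw7 was not. That Cdkn1a call was lost with only the groups compared and without both untreated libraries numbered 2. The gene model Gm37240 lies on the opposite strand over the whole of Fbxw7 and had 0.07 to 0.91 TPM. The strand setting of the counting is not given, so their reads may not be fully separated.

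Fbxo5 fell at 3 h in libraries labelled knockout. It had 92.7 and 67.7 TPM untreated, 65.4 and 63.3 TPM at 1 h and 39.3 and 35.2 TPM at 3 h. In libraries labelled wild type it had 82.9 and 71.4 TPM untreated, 80.2 and 62.7 TPM at 1 h and 95 and 81.6 TPM at 3 h. The libraries labelled knockout at 3 h lay below all 10 others. The log2 difference from untreated was -1.07 (SE 0.20, adjusted p = 0.0096), and against 1 h it was -0.78 (adjusted p = 0.0394). Between labels at 3 h, knockout minus wild type, it was -1.22 (SE 0.20, adjusted p = 0.00607). The fall from untreated was no longer called without the labelled knockout libraries 3 h number 2 or untreated number 1 (adjusted p up to 0.0721), or with median-of-ratios size factors (adjusted p = 0.0546). The difference between labels was lost without the 3 h libraries labelled knockout number 2 or labelled wild type number 1 (adjusted p up to 0.0628). The call against 1 h was lost without any 1 of 8 libraries, all but the 1 h libraries labelled wild type and the untreated ones labelled knockout (adjusted p up to 0.189). The difference of the responses was -1.26 (SE 0.28, adjusted p = 0.0496, limma). That call was lost without any 1 library other than untreated number 2 labelled knockout. It was also lost with no filter, a pseudocount of 0.1, size factors, quantile normalization, no trend and only the groups compared (adjusted p from 0.0576 to 0.186). Without both untreated libraries numbered 2 the fall from untreated was -1.3 (adjusted p = 0.0341), and the difference of the responses was not called (-1.38, adjusted p = 0.191).

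Skp2 and Ccnf differed between labels at 3 h, in opposite directions. Skp2, the receptor for p27, had 66.9 and 66.6 TPM in libraries labelled knockout at 3 h, against 113.9 and 109.7 TPM in libraries labelled wild type. The other 8 libraries lay between those groups, from 83.3 to 90.8 TPM. The difference, knockout minus wild type, was -0.74 (SE 0.12, adjusted p = 0.00702, limma). It lost the call without the 3 h library numbered 1 of either label (adjusted p up to 0.0689) and with size factors (adjusted p = 0.0599). The 3 h libraries thus stood on either side of the untreated level, but neither response was called by itself. In libraries labelled knockout the difference from untreated was -0.38 (adjusted p = 0.0894), called with the library number as a block (adjusted p = 0.0109). It was 0.35 in libraries labelled wild type (adjusted p = 1, and 0.249 with the block). The difference of the responses was -0.73 (SE 0.17, adjusted p = 0.065), called with the block (adjusted p = 0.0072). Lmbrd2 overlaps Skp2 on the opposite strand and had 2.68 to 9.95 TPM.

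Ccnf, which encodes cyclin F, had 84 and 76.9 TPM in libraries labelled knockout at 3 h, against 42.2 and 35.8 TPM in libraries labelled wild type. Untreated, it had 75.7 and 58.7 TPM in libraries labelled knockout and 61.9 and 60.3 TPM in libraries labelled wild type. At 1 h it had 68.4 and 61.2 TPM in libraries labelled knockout and 63.4 and 56.9 TPM in libraries labelled wild type. Here the libraries labelled wild type at 3 h stood apart, below all 10 others. The 3 h difference, knockout minus wild type, was 1.03 (SE 0.17, adjusted p = 0.00625). It lost the call without the 3 h libraries labelled knockout number 1 or labelled wild type number 2 (adjusted p up to 0.0606). The response was -0.64 in libraries labelled wild type (SE 0.17, unadjusted p = 0.00467 in the limma fit, adjusted p = 1) and 0.27 in libraries labelled knockout (adjusted p = 0.391). Their difference was 0.91 (SE 0.24, adjusted p = 0.0911), called with the block (adjusted p = 0.00591).

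Neither beta-TrCP gene was called in any comparison. Btrc had 21.9 and 24.4 TPM in libraries labelled knockout at 3 h, against 25.5 and 30.2 TPM in libraries labelled wild type, a log2 difference of -0.25 (adjusted p = 0.536). Fbxw11 had 31.6 and 47.1 TPM in libraries labelled knockout at 3 h, against 41.5 and 52.8 TPM in libraries labelled wild type, and the groups overlapped. Its log2 difference was -0.27 with an SE of 0.40 (adjusted p = 0.769). With the block the SE was 0.16 and the adjusted p 0.25. Btrc and Fbxw11 are close paralogs, and how reads shared between them were divided is not given in the sources used here.

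The core subunits Cul1 and Rbx1 were not called without the block. Cul1 had 91.3 and 134.5 TPM in libraries labelled knockout at 3 h, against 120.7 and 189 TPM untreated, and the groups overlapped. Its log2 difference was -0.44 (SE 0.36, adjusted p = 0.531), and with the block it was called (adjusted p = 0.0189). The 3 h difference between labels, knockout minus wild type, was -0.51 (adjusted p = 0.45, and 0.0115 with the block). Rbx1 had 176 and 150.5 TPM in libraries labelled knockout at 3 h, against 198 and 158 TPM untreated. That is a log2 difference of -0.12 (adjusted p = 0.811). The pseudogene Rbx1-ps, which shares sequence with Rbx1, had 0.65 to 12.4 TPM.

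**Figure D2:**
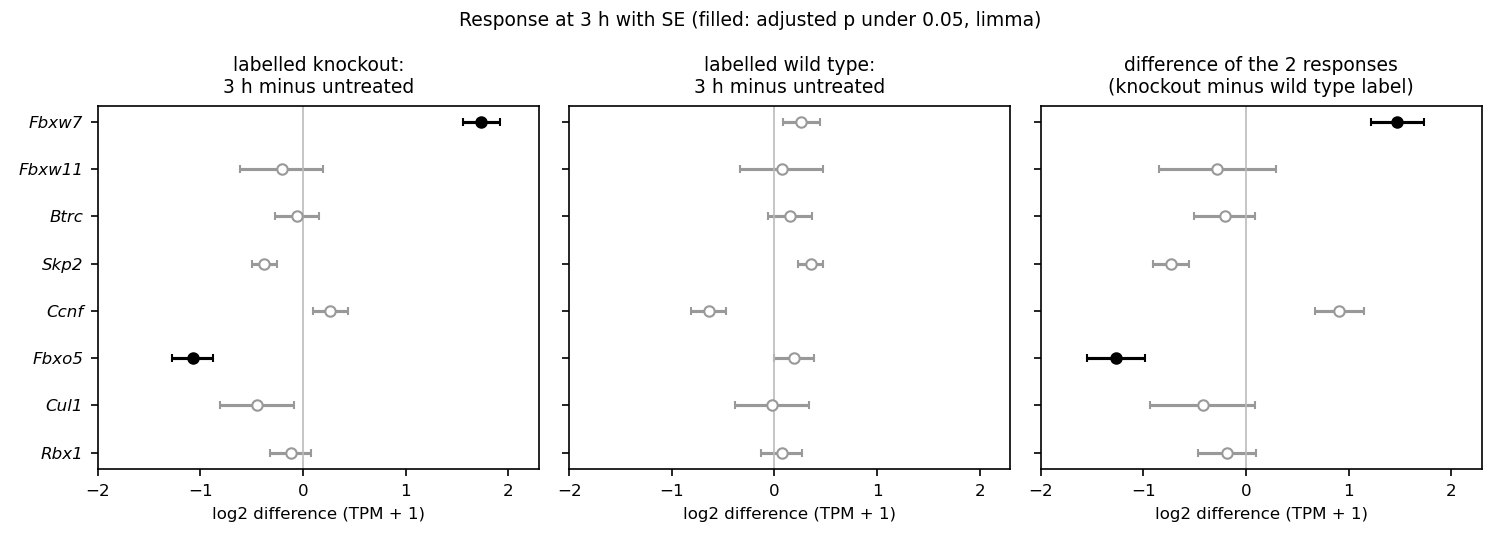
Log2 differences (horizontal axes, on the log2(TPM + 1) scale, with SE bars) of the 8 genes at 3 h against untreated in libraries labelled knockout, in libraries labelled wild type, and the difference of these responses. Filled points passed an adjusted p of 0.05; Fbxw7 (1.74) and Fbxo5 (-1.07) did so in libraries labelled knockout, and none in libraries labelled wild type.

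By count, 2 of the 8 genes were called at 3 h against untreated in libraries labelled knockout, Fbxw7 higher and Fbxo5 lower, where 12.1% of all 15535 tested genes were called. The same 2 genes were called against 1 h, where 11.2% of all genes were. Between labels at 3 h 4 of 8 were called (5 with the block), against 10.3% of all genes (28.1% with the block), and in the difference of the responses 2 of 8, against 3.45%. With the block 4 of 8 were called in the first of these comparisons, against 29.2% of all genes, 4 in the second, against 29.1%, and 4 in the last, against 13.4%. The median log2 difference of the 8 was -0.16 at 3 h against untreated in libraries labelled knockout, beside -0.12 for all tested genes. All genes' median moved to -0.02 with size factors, under which Fbxw7 rose by 1.85 and Fbxo5 stood at -0.96. Elsewhere limma called none of the 8. In libraries labelled wild type at 3 h it called 0% of all genes, while 2 of the 8 (Skp2 and Ccnf) and 524 of all genes had an unadjusted p under 0.05. The counts at 3 h against 1 h in these libraries were 2 of the 8 and 928 of all genes, with 0% called. At 1 h none of the 8 had an unadjusted p under 0.05 (limma) in libraries of either label. Of all genes 9.06% had one in libraries labelled knockout and 3.98% in libraries labelled wild type, with 0.103% and 0% called. Between labels at 1 h none of the 8 had one either, against 1.35% of all genes (0.0386% called). The same held between labels in untreated libraries, against 1.2% of all genes (0.0193% called). It also held in the difference of the 1 h responses, against 1.21% of all genes (0.00644% called).

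The library number was called for 6 of the 8 genes. Cul1 was higher in the library numbered 2 in 6 of 6 groups, 1.34 to 1.75 times, and Fbxw11 in 6 of 6 groups, 1.27 to 2.06 times. Averaged over groups the log2 difference, number 2 minus number 1, was 0.56 for Cul1 (adjusted p = 0.000736, limma with the library number as a term) and 0.61 for Fbxw11 (adjusted p = 0.00188). Btrc was also higher in number 2 (0.27, adjusted p = 0.0107). Rbx1 (-0.25, adjusted p = 0.00805), Fbxo5 (-0.24, adjusted p = 0.0179) and Ccnf (-0.18, adjusted p = 0.0333) were lower in number 2 in 6 of 6 groups. Fbxw7 (-0.10) and Skp2 (-0.02) were not called. Of all tested genes 42.9% were called for the number. What the number stands for is not given in the labels.

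**Figure D3:**
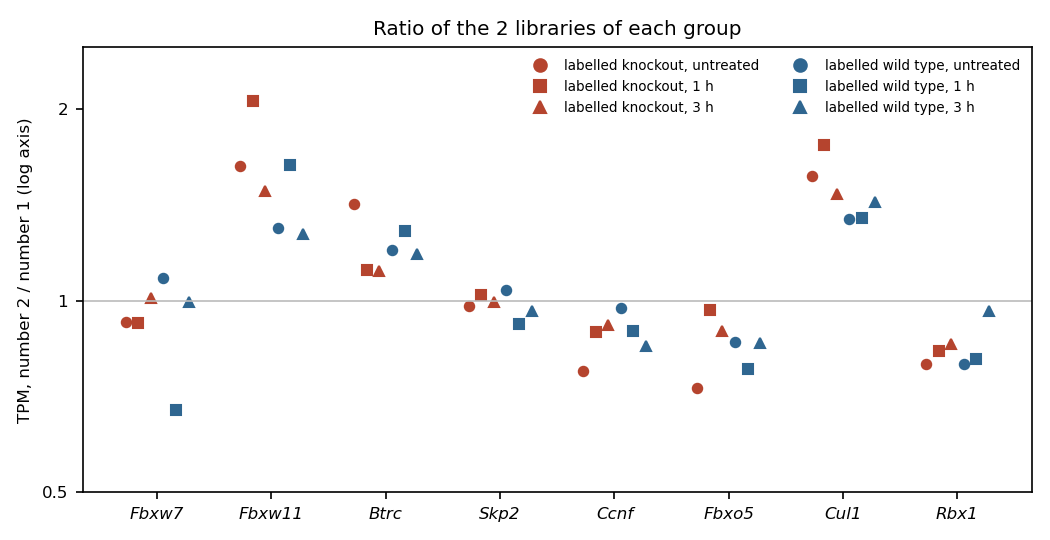
Ratio of TPM in the library numbered 2 to that numbered 1 (vertical log axis) for each SCF gene in each of the 6 groups. Fbxw11, Btrc and Cul1 lie above 1 in all 6 groups and Ccnf, Fbxo5 and Rbx1 below 1 in all 6.

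Within the F-box family Fbxw7 ranked near the top in libraries labelled knockout at 3 h. Of the 81 F-box genes in the table, which include 6 of the genes described here, it ranked 4 and 3 by TPM in these libraries and between 23 and 40 in the other 10. Its share of summed F-box TPM was 4.66% and 4.3% in those libraries, against 0.78% to 1.37% elsewhere. Among the 56 F-box genes tested, Fbxw7 had the highest log2 difference from untreated at 3 h in libraries labelled knockout and Fbxo5 the lowest. Fbxl4 (1.62, not called) and Fbxl20 (1.52, called) came next after Fbxw7. Between labels at 3 h Fbxw7 ranked 4, as it did in the difference of the 3 h responses, with Fbxw9 highest and Fbxl20 second in both.

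Of the 50 other F-box genes tested, 5 rose and 4 fell at 3 h in libraries labelled knockout, 18% against 12.1% of all genes, and 19 were called with the block, against 29.2%. Fbxw9 had 28.8 and 33.9 TPM at 3 h, against 10.4 and 10.9 TPM untreated (log2 1.47, adjusted p = 0.00203). Fbxo34 had 42.7 and 41.1 TPM at 3 h, against 16.1 and 16.5 TPM untreated (log2 1.31, adjusted p = 0.0014). Fbxo40, known from muscle, was at 2.67 and 2.64 TPM, against 0.7 and 0.46 TPM untreated (log2 1.21, adjusted p = 0.00538, limma). These 2 libraries at 3 h were enough by themselves to carry Fbxo40 past the filter of 1 TPM in 2 libraries. Its call, 1 of the 5 rises, is thus not independent of the filter. Fbxl14 fell by 0.82 (adjusted p = 0.00524). These 4 calls held without any 1 library. Those of Fbxo40 and Fbxl14 were lost with only the groups compared and without both untreated libraries numbered 2. In libraries labelled wild type at 3 h no F-box gene was called, and the values for Fbxw9 (-0.33) and Fbxo34 (-0.15) lay below 0. Their responses differed between labels by 1.80 for Fbxw9 (adjusted p = 0.0112) and 1.46 for Fbxo34 (adjusted p = 0.0114). The Fbxw9 difference was lost without 3 h number 2 or untreated number 1 labelled knockout, or without either 3 h library or untreated number 2 labelled wild type (adjusted p up to 0.0598). The Fbxo34 difference was lost without 3 h number 1 or untreated number 1 labelled knockout, or 3 h number 2 or untreated number 1 labelled wild type (adjusted p up to 0.0622).

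**Figure D4:**
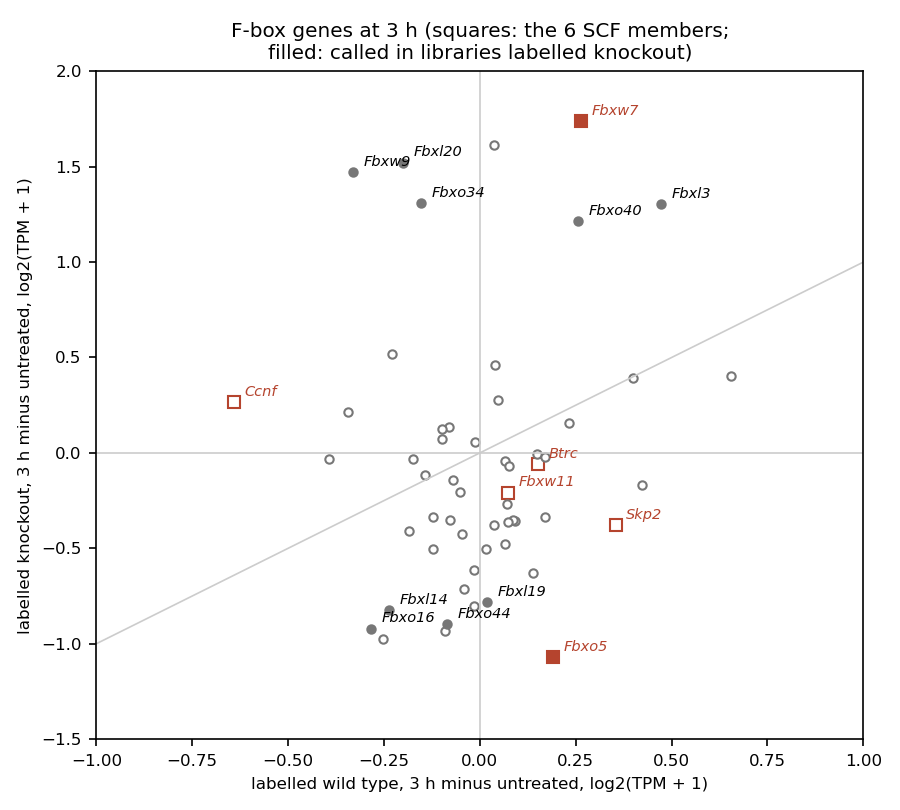
Log2 difference, 3 h minus untreated, of the 56 tested F-box genes in libraries labelled knockout (vertical) and labelled wild type (horizontal), on the log2(TPM + 1) scale, with the line of equal change. Squares are the 6 F-box genes described here and filled symbols were called in libraries labelled knockout; Fbxw7 is at the top with 1.74 and Fbxo5 at the bottom with -1.07.

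Other genes of the ligase machinery are read here against the 12.1% of all genes called at 3 h in libraries labelled knockout, or 29.2% with the block. None of 9 other cullins and adaptors was called, and with the block 1 was, Cul4b (log2 -0.48, adjusted p = 0.0282). Skp1a, the adaptor between CUL1 and F-box proteins, had 326 and 448 TPM at 3 h in libraries labelled knockout, against 318 and 441 TPM untreated. Cullins work only when the ubiquitin-like protein NEDD8 is attached, and of 23 genes of that cycle, of CAND exchange factors and of the COP9 signalosome 1 rose and 2 fell, 13% against 12.1% of all genes, with 11 of 23 called under the block, where 29.2% of all genes were. Dcun1d3, a NEDD8 ligase cofactor, had 25.4 and 22.4 TPM at 3 h, against 10.8 and 9.56 TPM untreated in libraries labelled knockout (log2 1.15, adjusted p = 0.0078). Its paralog Dcun1d2 fell by 0.69 (adjusted p = 0.017), and Cand1, which exchanges F-box proteins on CUL1, fell by 0.84 (adjusted p = 0.0394). Each of these calls was lost without some 1 library. For Dcun1d3 these were 3 h number 1 and untreated number 2, for Dcun1d2 any of the 4 libraries compared, and for Cand1 any library but the 1 h ones labelled knockout (adjusted p up to 0.0681 for Dcun1d3, 0.106 for Dcun1d2 and 0.21 for Cand1). Of 10 ubiquitin-conjugating enzymes and cofactors none was called, against 12.1% of all genes, and 5 were with the block, against 29.2%. Among them Cdc34, the enzyme that extends chains on SCF substrates, had 672 and 542 TPM at 3 h, against 415 and 298 TPM untreated in libraries labelled knockout (log2 0.78, adjusted p = 0.0874, and 0.00275 with the block).

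Transcripts of known FBXW7 substrates moved in both directions. Of 11 tested, 2 rose and 4 fell at 3 h in libraries labelled knockout, 54.5% against 12.1% of all genes. With the block 6 were called, against 29.2% of all genes. FBXW7 acts on the proteins, and protein was not measured. Aurka, a mitotic kinase, had 33.1 and 35 TPM at 3 h, against 104 and 109.3 TPM untreated (log2 -1.62, adjusted p = 0.000308), a call that held without any 1 library. Ccne1, which encodes cyclin E1, had 51.7 and 52.2 TPM at 3 h, against 103.8 and 85.6 TPM untreated (log2 -0.85, adjusted p = 0.0132). Mycn fell by 0.96 (adjusted p = 0.0284) and Myc, named after its values were seen, by 1.44 (adjusted p = 0.0493). Notch1 rose by 1.31 (adjusted p = 0.0285), with 32.3 and 53.7 TPM at 3 h, against 12.5 and 21.1 TPM untreated. Jun rose by 0.70 (adjusted p = 0.0362). How far the Myc and Jun calls depend on single libraries was not examined for this comparison. Against 1 h Jun rose by 0.71, a call lost without any 1 of 8 libraries, with size factors and with quantile normalization.

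Several of these calls were lost when 1 library was left out, which also leaves fewer libraries for the estimate of the spread. The Ccne1 call was lost without the labelled knockout libraries 3 h number 1, 3 h number 2 or untreated number 1 (adjusted p up to 0.0991), and the Notch1 call without 3 h number 2 or untreated number 1 (adjusted p up to 0.171). The Mycn call was lost without 3 h number 1, either untreated library, or either 3 h library labelled wild type (adjusted p up to 0.183). At 3 h Ccne1 had 51.7 and 52.2 TPM in libraries labelled knockout, against 147 and 126 TPM in libraries labelled wild type. That difference was -1.37 (adjusted p = 0.00147) and held without any 1 library. The responses of Ccne1 differed between labels by -1.32 (adjusted p = 0.0209), lost without any 1 of 6 libraries, all of the untreated and 3 h ones but untreated number 2 labelled knockout and number 1 labelled wild type (adjusted p up to 0.107).

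For SKP2 5 of 7 substrate genes were called at 3 h in libraries labelled knockout with the block, against 29.2% of all genes. Without the block 4 of 7 were called, 3 higher and 1 lower, 57.1% against 12.1% of all genes. Those that rose encode CDK inhibitors and a FOXO transcription factor: Cdkn1a, a p53 target itself (log2 6.06, adjusted p = 2.27e-06), Foxo1 (0.90, adjusted p = 0.00903) and Cdkn1c (0.67, adjusted p = 0.0304). Cdkn1b, which encodes p27, the best known SKP2 substrate, fell. It had 9.48 and 9.89 TPM at 3 h, against 26.9 and 30.2 TPM untreated (log2 -1.47, adjusted p = 0.000438), and 22.7 and 25.6 TPM in libraries labelled wild type at 3 h. The Cdkn1a and Cdkn1b calls held without any 1 library. Foxo1 lost its call without 3 of the 4 libraries compared (all but untreated number 1, adjusted p up to 0.0634), and Cdkn1c without any of these 4 or of the untreated libraries labelled wild type (adjusted p up to 0.172). The response of Cdkn1b differed between labels by -1.21 (adjusted p = 0.0171), a call lost without any 1 of the 8 untreated and 3 h libraries (adjusted p up to 0.0849).

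Of 12 beta-TrCP substrate genes 1 rose and 1 fell at 3 h in libraries labelled knockout, 16.7% against 12.1% of all genes, and 7 were called with the block, against 29.2%. Nfe2l2, the oxidative stress regulator NRF2, rose by 0.99 (adjusted p = 0.00437), a call that held without any 1 library. That call was lost with only the groups compared and without both untreated libraries numbered 2. Bora, an activator of mitotic kinases, fell by 1.10 (adjusted p = 0.0247), a call lost without any 1 of the 4 libraries compared (adjusted p up to 0.144). Of 8 cyclin F substrate genes 1 rose and 2 fell, 37.5% against 12.1%, and 5 were called with the block, against 29.2%. Nusap1, a spindle protein, fell by 1.3 (adjusted p = 0.00328) and held without any 1 library. Its call was lost in the same alternatives as that of Nfe2l2. Fzr1, which encodes the CDH1 activator of the anaphase-promoting complex, fell by 1.31 (adjusted p = 0.0161), lost without the labelled knockout libraries 3 h number 1 or untreated number 2 (adjusted p up to 0.12). Ccp110, a centriole protein, rose by 0.57 (adjusted p = 0.0281), lost without any 1 of the 8 untreated and 3 h libraries (adjusted p up to 0.143).

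The anaphase-promoting complex, which FBXO5 inhibits, had 2 of 18 genes called, 11.1% against 12.1% of all genes, and 7 with the block, against 29.2%. These were Fzr1, which is in both lists, and Anapc16 (log2 0.52, adjusted p = 0.029), whose call was lost without any 1 of the 8 untreated and 3 h libraries (adjusted p up to 0.147). In libraries labelled wild type at 3 h limma called no gene of any of these lists. With the block it called 1 FBXW7 substrate, Aurka, and 1 gene of the anaphase-promoting complex.

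**Figure D5:**
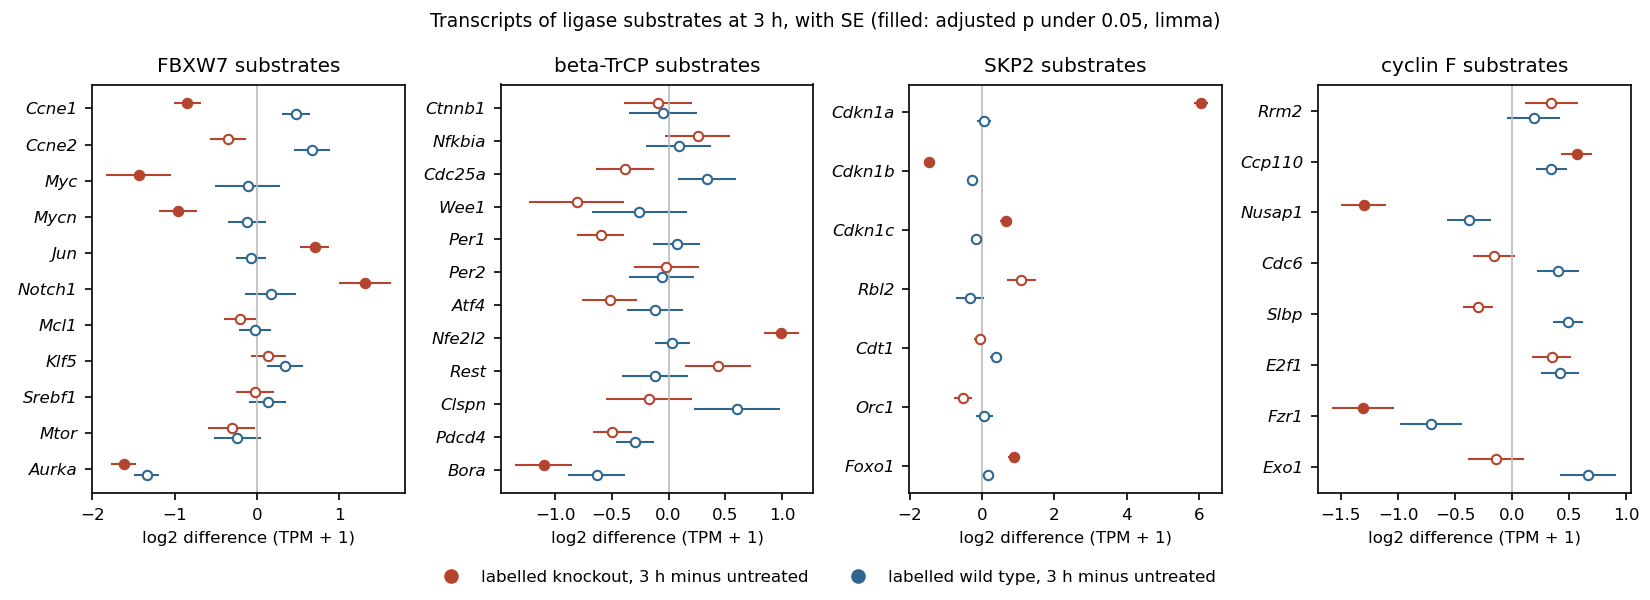
Log2 difference with SE (horizontal axes, log2(TPM + 1) scale), 3 h minus untreated, of transcripts of known substrates of FBXW7, beta-TrCP, SKP2 and cyclin F in libraries labelled knockout and labelled wild type. Filled points passed an adjusted p of 0.05; Cdkn1a (6.06) and Notch1 (1.31) are among those higher, Aurka (-1.62) and Cdkn1b (-1.47) among those lower, and none is filled for libraries labelled wild type.

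Several cell-type markers differed between the 3 h and untreated libraries labelled knockout, and some also varied among the other groups. The summed TPM of 4 of 4 neural progenitor markers was 107 to 112 in libraries labelled knockout at 3 h, against 251 to 253 untreated. Primitive erythroid markers (4 of 4 past the filter) summed to 11010 to 13300 TPM at 3 h, against 1924 to 4987 TPM untreated in libraries labelled knockout. Somite markers (4 of 4) summed to 43.1 to 50.5 TPM at 3 h, against 63 to 90.2 TPM untreated, and visceral endoderm markers (4 of 4) to 124.7 to 328 TPM at 3 h, against 12.6 to 102 TPM untreated. Cardiac muscle markers (4 of 4) summed to 1062 to 1493 TPM at 3 h, against 652 to 1064 TPM untreated, and endothelial markers (3 of 3) to 136.2 to 136.5 TPM, against 98.3 to 112 TPM untreated. Trophoblast markers summed to 2.42 to 6.75 TPM over all libraries with 1 of 4 past the filter and 1 at 0 throughout, and both decidua markers were at 0 in every library. At 1 h primitive erythroid markers summed to 4804 to 8289 TPM in libraries labelled knockout and 8539 to 10540 TPM in libraries labelled wild type. In libraries labelled knockout at 1 h neural progenitor markers summed to 177.6 to 188.3 TPM and visceral endoderm markers to 19.7 to 190.3 TPM. The part of these markers in the results was not tested.

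The genes most like each of the 8 over the 12 libraries were found by the root mean square difference of centred log2(TPM + 1), as a description with no test. Closest to Fbxw7 were Anpep (0.146), Rxylt1 (0.15) and Kbtbd12 (0.156). Rxylt1 had 109.6 and 105 TPM at 3 h in libraries labelled knockout, against 30.9 and 23.7 TPM untreated, and Anpep had 23.1 and 23.2 TPM, against 6.04 and 6.76 TPM. Closest to Fbxo5 was Pax3 (0.106), a neural tube and somite gene, with 6.27 and 5.73 TPM at 3 h in libraries labelled knockout, against 18.6 and 14.4 TPM untreated. Closest to Skp2 was Slbp (0.0654), the histone stem-loop binding protein and itself a cyclin F substrate. Slbp had 130.5 and 138.6 TPM at 3 h in libraries labelled knockout, against 233 and 222 TPM in libraries labelled wild type (log2 -0.76, adjusted p = 0.00866). Its call was lost without 3 h number 1 of either label or 3 h number 2 labelled wild type (adjusted p up to 0.0797). Closest to Ccnf was Ctxn1 (0.166), to Fbxw11 Snx6 (0.0664), to Btrc Hadha (0.0528), to Cul1 Selenot (0.056) and to Rbx1 Rbmxl1 (0.0734). These neighbours depend on the scaling. Pax3 was not among the 3 nearest to Fbxo5 with a pseudocount of 0.1 or with quantile normalization, under which Fbxo5 kept 1 of its 3 neighbours, Btrc and Cul1 1 each and Rbx1 0. Anpep, Rxylt1, Slbp and Ctxn1 stayed among the 3 nearest under the pseudocount of 0.1, size factors and quantile normalization.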

How the data were processed

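RNA was measured in 12 libraries of embryos, 2 per group. The authors deposited TPM for 53647 gene IDs, and the deposited columns sum to between 999999.1 and 1000000.8, which leaves the depth unknown. Per the submitters' processing notes the tools were R 4.3.3, RSEM 1.3.3, DESeq2 1.42.1, HTSeq 0.12.3 and STAR 2.7.3a, with the builds GRCm39 and mm39, and the step of each is not stated. Symbols came by gene ID from a table of mouse gene names and matched 52093 IDs (97.1%). Overlapping genes were looked up in a GENCODE annotation of an earlier build than the authors'. RefSeq promoter windows are on GRCm38.p6, so no coordinates are given on the authors' build.

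The test covered the 15535 genes that reached 1 TPM in 2 or more libraries. A limma model (version 3.58.1, run in R 4.3.3) of log2(TPM + 1) took 1 mean for each group of the 12 libraries, a trend of the spread with level, and 6 residual degrees of freedom. For 11 contrasts, two-sided p-values were adjusted over all tested genes by Benjamini-Hochberg, with an adjusted p of 0.05 as the limit for a call. A fold change on this scale understates the change of low genes. The steps were tested on simulated data with independent noise in each library. That noise lacks the shared deviations of same-numbered libraries described below, so the simulation does not cover them. Figures were drawn with matplotlib 3.10.9 in Python 3.11.15.

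The labels give each library a number. Deviations of same-numbered libraries from their group means correlated in 15 of 15 pairs of groups (r from 0.33 to 0.80), so the numbers pair the libraries, and a fit with the number as a block was made beside the main one.

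The 8 genes and the lists of related genes were chosen with earlier results of these data known. Named besides them were Trp53, Cdkn1a, Ccng1 and Mdm2, up to 4 called genes with the smallest p from each list, or the gene with the smallest p where none was called, and the 3 genes most like each of the 8. Alternatives tried were size factors, no filter on low values, a pseudocount of 0.1, quantile normalization, no trend, only the groups compared, the block, leaving out each library, and, chosen after seeing the data, leaving out both 1 h or both untreated libraries numbered 2.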

Additional observations from a re-analysis of the deposited data

Results flagged for a closer look

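These results stood out because the response differed between labels by a test of the difference itself (response in libraries labelled knockout minus response in libraries labelled wild type, log2 scale, limma). At 3 h the difference was 1.48 for Fbxw7 (adjusted p = 0.019) and -1.26 for Fbxo5 (adjusted p = 0.0496). Among the processing alternatives only the block kept the Fbxo5 call. The Fbxw7 call was lost without any 1 of the 8 untreated and 3 h libraries. The difference was 1.80 for Fbxw9 (adjusted p = 0.0112) and 1.46 for Fbxo34 (adjusted p = 0.0114), the other F-box genes with such a difference. Among substrate genes it was -1.32 for Ccne1 (adjusted p = 0.0209), -1.21 for Cdkn1b (adjusted p = 0.0171) and 5.99 for Cdkn1a (adjusted p = 4.66e-05). At 1 h Cdkn1a differed by 3.31 (adjusted p = 0.013). That call was lost without any 1 of 10 libraries, all but 1 h number 2 and untreated number 1 labelled wild type (adjusted p up to 0.156), with only the groups compared (0.375), without both 1 h libraries numbered 2 (0.127) and without both untreated libraries numbered 2 (0.96).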

How the results depend on the processing

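With the replicate block, 4 of the 8 genes were called at 3 h against untreated in libraries labelled knockout (2 without it), 4 at 3 h against 1 h (2 without it) and 4 in the difference of the responses at 3 h (2 without it), and 5 between labels at 3 h (4 without it). With only the groups compared in the fit these 4 counts were 1, 0, 1 and 2 in the same order. With size factors the count was 1 in each of the first 3, with quantile normalization 1 at 3 h against 1 h and 1 in the difference of the responses, and with no filter 1 at 3 h against 1 h. With no filter the count in the difference of the responses stayed at 2, but with Skp2 called in place of Fbxo5. A pseudocount of 0.1 and a fit with no trend each left 1 in the difference of the responses. Without both 1 h libraries numbered 2, an alternative chosen after seeing the data, the count was 1 at 3 h against 1 h and 1 in the difference of the responses. Without both untreated libraries numbered 2, also chosen after seeing the data, it was 1 at 3 h against 1 h and 0 in the difference of the responses. Leaving out each library in turn gave 1 to 2 genes at 3 h against untreated, 1 to 2 at 3 h against 1 h, 2 to 4 between labels at 3 h and 0 to 1 in the difference of the responses. The cause of these changes was not tested, apart from the fewer samples that leaving libraries out brings. In the other 7 comparisons none of the 8 was called under any alternative run. Over all genes the block raised the calls at 3 h against untreated to 4534, against 1883 without it, and at 3 h between labels to 4371, against 1603. Over 85 fold changes of single genes and 21 alternatives, 1423 of 1785 values kept their side of the threshold and their direction, 354 lost the call, 8 gained it and 0 changed direction. Several alternatives could not change a direction, since the block, no trend, no filter and only the groups compared leave each fold change as it was. Leaving out a library of a group not compared does the same. Of the 3 Fbxw7 calls on levels, the one against 1 h was lost with only the groups compared (adjusted p = 0.0535). Depth is unknown for TPM, so low genes such as Fbxo40 carry an unknown counting error.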

Other observations

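Myc and Mycn, whose proteins are FBXW7 substrates, were not called at 1 h in libraries of either label, and are given here for their values. Myc had 28.9 and 15.7 TPM at 1 h in libraries labelled knockout, against 86.1 and 50.5 TPM untreated, and 34.9 and 21.7 TPM at 1 h in libraries labelled wild type, against 73.5 and 58.1 TPM untreated. The log2 differences of Myc were -1.58 in libraries labelled knockout (adjusted p = 0.272 in limma, or 0.00337 once the replicate block was added) and -1.22 in libraries labelled wild type (adjusted p = 1, or 0.158 with the block). Later, at 3 h, Myc had 28.4 and 19.9 TPM in libraries labelled knockout, against 74.2 and 49 TPM in libraries labelled wild type. Mycn had 32.2 and 39.3 TPM at 1 h in libraries labelled knockout, against 80.4 and 90.6 TPM untreated, and 36.1 and 50.1 TPM at 1 h in libraries labelled wild type, against 73.8 and 96.6 TPM untreated. The log2 differences of Mycn were -1.24 in libraries labelled knockout (adjusted p = 0.136, or 0.00435 with the block) and -0.97 in libraries labelled wild type (adjusted p = 0.943, or 0.158 with the block). These genes were picked after their values were seen. Both 1 h libraries numbered 2 also have a higher share of ribosomal protein transcripts, and its part here was not tested.

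Aurka had 33.1 and 35 TPM in libraries labelled knockout and 42.4 and 46.1 TPM in libraries labelled wild type at 3 h, against 104 to 118.7 TPM in the 4 untreated libraries. The log2 difference in libraries labelled wild type was -1.34 (adjusted p = 0.0823, and 0.00299 with the block), and the responses differed between labels by -0.28 (adjusted p = 0.651).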
